A study of Drosophila melanogaster with 25 samples.

Results

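The 40 genes described here are the rows of the deposited count tables whose symbol begins with ND-, out of 17208 genes in all. Fly symbols of this form name the nuclear genes for subunits of complex I, the NADH dehydrogenase of the respiratory chain. The set holds 7 core subunits, 26 accessory subunits, ND-MLRQ, and 6 genes whose symbols end in L and name them as relatives of a subunit (ND-51L1, ND-51L2, ND-24L, ND-20L, ND-49L and ND-B14.5AL). The series altered the activity of fat (ft), which encodes a giant cadherin of growth control and planar polarity. FtICD animals came from a stock in which the ubiquitous driver ubi-Gal4 expressed UAS-FtICD-3xFLAG, the tagged intracellular domain of Fat. RNA came from whole embryos of 16–20 h (4 FtICD and 4 wild-type libraries), from wing discs (3 and 3) and from eye-brain complexes (3 and 2), both of the L3 larval stage. A second table held eye-brain complexes of L3 larvae of the ft null genotype, ft fd5-5/ft X13 (3 libraries), with wild type of their own (3). Wild type was w1118 in every group, and all animals were kept at 25 °C. The wild type carries neither driver nor transgene, so an effect of the Gal4 driver and an effect of FtICD cannot be told apart.

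Complex I takes electrons from NADH, passes them along a chain of iron-sulfur clusters to ubiquinone and pumps protons across the inner mitochondrial membrane. Its N module in the matrix holds the flavin site that oxidises NADH, its Q module reduces ubiquinone, and its P modules form the membrane arm that moves protons. The nuclear core subunits of the N and Q modules carry the redox centres. The membrane core is encoded by mitochondrial DNA, so the enzyme draws on 2 genomes, and nuclear accessory subunits hold the arms together. The roles given below come from the mammalian enzyme, whose subunits have clear fly counterparts. In flies as in mammals, muscle and nervous tissue are known for a high demand on this enzyme.

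FtICD embryo libraries held 23642594 to 28000708 counts in total, and wild-type embryo libraries 24827492 to 30046844. Totals in the larval libraries of the FtICD table lay between 30361047 and 54256669, and those of the ft null table between 15016561 and 21001535. Per the labels, embryos and ft null libraries were sequenced on the NovaSeq X Plus, all others on the NovaSeq 6000. RNA of ft was 26.7-fold to 46.8-fold higher in FtICD than in wild type in the 3 tissues. In the ft null it was 1.45-fold higher than in its wild type, so the amount of ft RNA does not check that label. The summed level of 6 wing disc markers was highest in wing discs (1038 to 1411 CPM in FtICD and wild type) and those of 6 eye disc and 6 neuron markers in eye-brain complexes, although single markers went against the labels: so was lower in wild-type eye-brain complexes of the FtICD table than in wild-type embryos, with means of 2.39 and 10.3 CPM, and rn and bi were lower in wing discs than in the wild type of the ft null set. FtICD eye-brain replicate 3 stood apart from the other FtICD eye-brain libraries. It had 3627 CPM (counts per 1000000 counts of the library) of Hsc70-4 against 54.2 and 85.7 CPM in the others. Its summed fat body marker level was 4539 CPM. All other NovaSeq 6000 libraries had 45.1 to 442 CPM of Hsc70-4. On the NovaSeq X Plus, embryos had 1782 to 2835 CPM. Libraries of the ft null set, wild type included, had 7464 to 12801 CPM. Replicate 3 was thus high in Hsc70-4 among the NovaSeq 6000 libraries alone, and the part of the sequencer was not tested. Counts and named genes of the FtICD eye-brain comparison are also given without this replicate where a call or a value rests on it.

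Of the 40 genes, 34 passed the filter on low counts in embryos, 35 passed it in wing discs, 34 in FtICD eye-brain complexes and 33 in ft null. The genes left out in every comparison were ND-51L2, ND-24L, ND-B14.5AL, ND-49L and ND-B8. ND-20L was tested in wing discs alone, and ND-51L1 in all but the ft null set. ND-B8, the accessory subunit known as NDUFA2 in humans, is the shortest member with 460 bases of merged exons, and had 0 to 8 counts in each of the 25 libraries. Its exons overlap those of Gs1l on the opposite strand, which was counted at 23.8 to 71.6 CPM. ND-24L had 2 counts in all libraries together, ND-49L 15, ND-B14.5AL 36 and ND-51L2 84. The genes of the set lie on every large chromosome arm, with 9 on 2L, 8 on 2R, 9 on 3L, 4 on 3R, 9 on X, and ND-49 on chromosome 4. Exons of 12 members overlap another gene by at least 50 bases, which the counting may have split between the 2 genes; they include ND-ASHI (Fum1), ND-B18 (opm), ND-13A (CG4230), ND-51 (CG34180), ND-B22 (CG31855), ND-B16.6 (CG3847), ND-15 (Pus10), ND-MNLL (CG45089) and ND-MWFE (TppII and Nrk).

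In wild type the subunit genes had far more RNA in whole embryos than in either larval tissue. With the 9 wild-type libraries of the FtICD table scaled together, the summed level of the 35 genes that passed the filter was 2606 to 2691 CPM in wing discs, 2339 and 2502 CPM in eye-brain complexes, and 7694 to 8519 CPM in embryos. Wing disc libraries lay below all embryo libraries for 32 of the 35 genes, a pattern that 50.4% of all 12187 genes showed, and above them for 1, against 36.4% of all genes. Eye-brain libraries lay below all embryo libraries for 33 of 35 genes, against 45% of all genes, and above them for none, against 41.8%. The median log2 ratio of the members was -1.67 for wing disc over embryo, where that of all genes was -0.39. For eye-brain over embryo it was -1.75, with -0.06 over all genes. The gene above embryos in wing discs was ND-20L, the relative of the core subunit ND-20, which passed the filter through the wing discs alone, so that its place was fixed by the filter. The larval tissues were close to each other, with a median log2 ratio of -0.09 for eye-brain over wing disc. Eye-brain libraries lay above all wing disc libraries for 2 of the 35 genes, against 35.8% of all genes, and below them for 14, against 28.9%. Among these 9 libraries stage, tissue and sequencer change together between embryos and larval tissues and cannot be told apart. Wild-type eye-brain complexes of the ft null table were sequenced on the NovaSeq X Plus, as embryos were. Their summed level of all ND- genes was 2557 to 2620 CPM, against 6493 to 7180 CPM in wild-type embryos, each scaled within its own comparison. No test was made of these contrasts, and the part of the sequencer was not tested.

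Per kilobase of merged exons, the 33 subunit genes that are neither relatives nor ND-B8 spanned 94.4 to 448.9 CPM per kilobase in wild-type embryos, with a median of 180.7. ND-ACP, the mitochondrial acyl carrier protein, was the highest on this scale in wild-type embryos, wing discs and eye-brain complexes of the FtICD table. ND-B14.5A (NDUFA7 in humans) was the lowest in wild-type embryos and wing discs. In the ft null set ND-MLRQ was highest in wild type, at 129 CPM per kilobase.

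FtICD embryos had less RNA of most subunits than wild type. Of the 34 genes tested, 21 were lower in FtICD (25.8% of all genes were) and 1 was higher (26.7% of all genes), so that 64.7% of the members were called in either direction, against 52.5% of all genes. The 21 lower genes fell by 13.9% to 45.9%. The median log2 fold change was -0.33 over the members and 0.00 over all 11422 genes tested, and 28 of 34 members were below 0. FtICD libraries did not overlap with wild type for 23 of the 34 members, against 48% of all genes. The summed ND- level was 5230 to 5539 CPM in FtICD embryos and 6493 to 7180 CPM in wild-type embryos. In whole embryos, fewer cells of a type and less RNA per cell cannot be told apart.

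**Figure D1:**
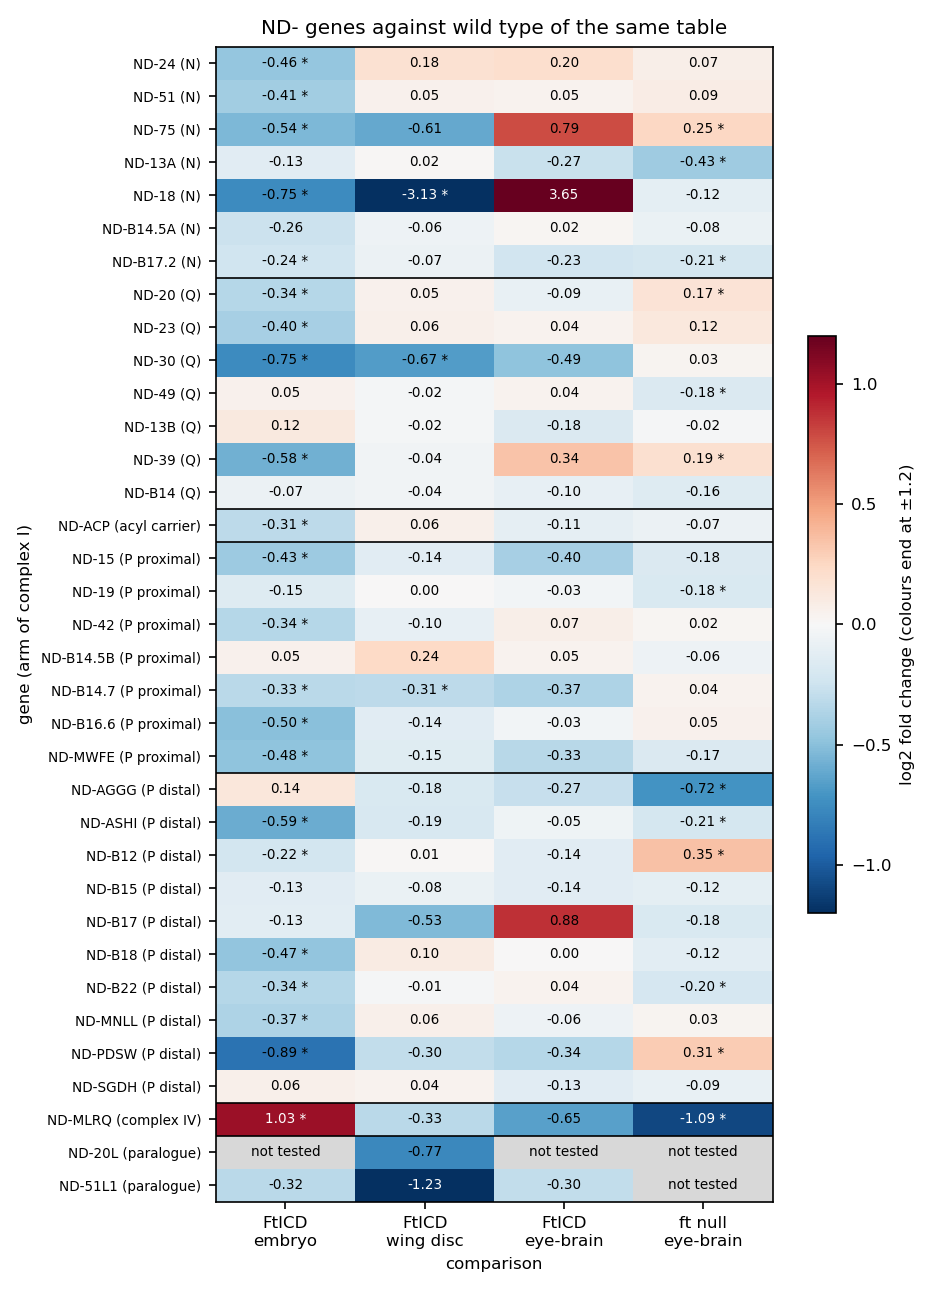
Log2 fold changes of the 35 tested ND- genes (rows, with the arm of complex I in brackets) in FtICD embryos, FtICD wing discs, FtICD eye-brain complexes and ft null eye-brain complexes (columns), each against wild type of its own set; asterisks mark an adjusted p under 0.05 in edgeR and grey cells were not tested. The embryo column holds 21 lower and 1 higher call, the wing disc column 3 lower calls, the FtICD eye-brain column none, and the ft null column 5 higher and 8 lower calls.

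The lower genes in embryos lay in all arms of the enzyme, and the counts of each arm stand beside the 25.8% of all genes that were lower. In the N module 5 of 7 tested genes fell, with a median log2 fold change of -0.41, and in the Q module 4 of 7, with -0.34. In the proximal membrane arm 5 of 7 fell (median -0.34) and in the distal arm 6 of 10 (median -0.28), as did ND-ACP, with a log2 fold change of -0.31 ± 0.07 (SE). Of the core subunits 6 of 7 fell, and of the accessory subunits 15 of 25; the difference between the classes was not tested. ND-49, the core subunit that forms much of the ubiquinone site, was the exception among the core, with 309, 316, 321 and 304 CPM in FtICD embryos and 292, 307, 318 and 290 CPM in wild-type embryos. Its groups overlapped, and its log2 fold change was 0.05 ± 0.06 (SE, adjusted p = 0.515).

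ND-PDSW (NDUFB10 in humans), an accessory subunit of the distal membrane arm, had the smallest adjusted p among the members. It had 168, 169, 170 and 171 CPM in FtICD embryos, against 327, 312, 319 and 297 CPM in wild-type embryos. The FtICD libraries were nearly equal to each other and all lay far below wild type. The adjusted p in edgeR was 2.4e-06. ND-18 (NDUFS4), which helps to fasten the N module to the rest of the enzyme, had 154, 153, 153 and 146 CPM in FtICD and 266, 248, 260 and 248 CPM in wild type. Its groups did not overlap either, and it fell by 0.75 ± 0.06 in log2 terms (SE, adjusted p = 6.9e-06). ND-39 (NDUFA9), an accessory subunit at the junction of matrix and membrane arm, had 382, 388, 393 and 385 CPM in FtICD and 582, 566, 605 and 556 CPM in wild type. It was the most abundant member in wild-type embryos by CPM, and its log2 fold change was -0.58 ± 0.06 (SE, adjusted p = 2.8e-05).

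ND-30 (NDUFS3), a core subunit of the Q module, had 99.9, 115, 114 and 113 CPM in FtICD embryos and 209, 182, 178 and 177 CPM in wild-type embryos. Wild-type replicate 1 was the highest, and all FtICD libraries lay below all wild-type ones. The log2 fold change was -0.75 ± 0.08 (SE, adjusted p = 3.2e-05). ND-ASHI (NDUFB8), of the distal membrane arm, had 122, 136, 141 and 136 CPM in FtICD and 209, 201, 204 and 194 CPM in wild type, and fell by 0.59 ± 0.07 (SE, adjusted p = 5.2e-05). ND-75 (NDUFS1), the large iron-sulfur subunit of the N module, had 273, 291, 317 and 294 CPM in FtICD and 415, 430, 437 and 426 CPM in wild type. Its groups did not overlap, and the log2 fold change was -0.54 ± 0.07 (SE, adjusted p = 8.1e-05).

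The other core subunits fell by less. ND-51 (NDUFV1), which holds the flavin and binds NADH, averaged 273 ± 21.0 CPM in FtICD embryos and 364 ± 18.1 CPM in wild-type embryos (SD, n = 4 each), and fell by 0.41 ± 0.08 in log2 terms (SE). ND-24 (NDUFV2), its iron-sulfur partner, averaged 156 ± 14.2 CPM in FtICD and 215 ± 17.8 CPM in wild type (SD, n = 4 each). ND-23 (NDUFS8), with a pair of iron-sulfur clusters on the way to ubiquinone, averaged 104 ± 8.16 CPM in FtICD and 136 ± 2.53 CPM in wild type (SD, n = 4 each). ND-20 (NDUFS7), which holds the last cluster before ubiquinone, had 216, 215, 215 and 217 CPM in FtICD and 274, 270, 290 and 259 CPM in wild type. Adjusted p-values of these 4 genes lay between 0.000954 and 0.00132. The smallest called decrease was that of ND-B12 (NDUFB3), with 92.4, 92.4, 91.3 and 96.6 CPM in FtICD and 125, 106, 103 and 98.8 CPM in wild type. Its adjusted p of 0.0417 rose above 0.05 when any library but wild-type replicate 4 was left out, up to 0.0921 without wild-type replicate 1.

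ND-MLRQ was the member that rose in FtICD embryos. Its human counterpart NDUFA4 was long listed with complex I and is now counted with cytochrome c oxidase, the last enzyme of the chain. It had 218, 190, 175 and 212 CPM in FtICD and 111, 91.4, 96.3 and 91.5 CPM in wild type. Every FtICD library was well above every wild-type one (adjusted p = 1.3e-05). Of the 10 accessory subunits without a call, ND-AGGG, ND-SGDH, ND-B14.5B and ND-13B had log2 fold changes between 0.05 and 0.14, and ND-B17, ND-B14.5A, ND-13A, ND-B14, ND-B15 and ND-19 had log2 fold changes between -0.26 and -0.07.

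**Figure D2:**
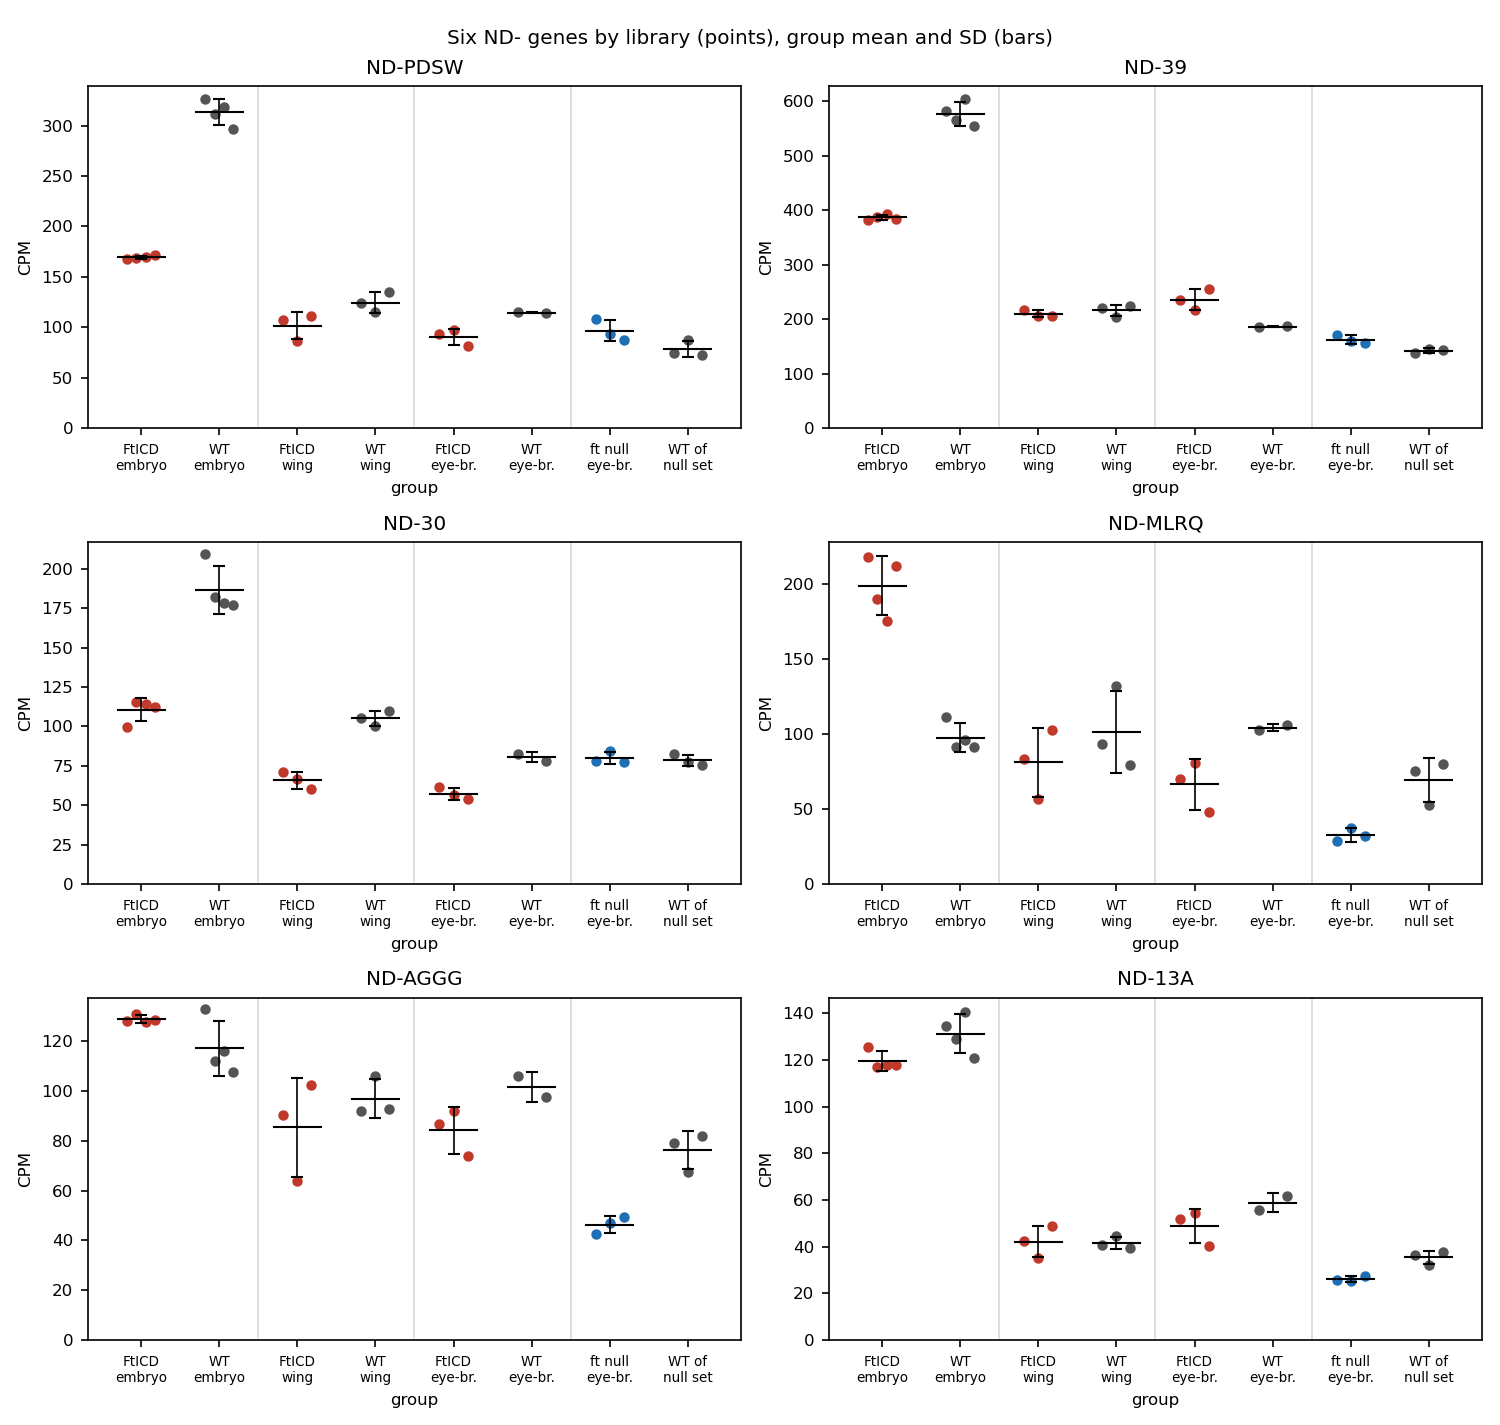
CPM (vertical axes, from 0) of ND-PDSW, ND-39, ND-30, ND-MLRQ, ND-AGGG and ND-13A in each library (points) of the 8 groups (horizontal axes), with each group's mean and SD (bars). In embryos FtICD lies below wild type for ND-PDSW, ND-39 and ND-30 and above it for ND-MLRQ; ND-30 is also lower in FtICD wing discs; in the ft null set ND-MLRQ, ND-AGGG and ND-13A lie below wild type and ND-PDSW and ND-39 above it.

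Where the lower genes lie and how long they are was compared with all genes. On the X chromosome 8 of 9 members fell in FtICD embryos, the other being ND-B14.5A with a log2 fold change of -0.26 (adjusted p = 0.0559), and on the autosomes 13 of 25 fell. Among all genes tested 31.8% on X and 24.8% on the autosomes were lower. The roX1 RNA of X chromosome dosage compensation was at 735 to 824 CPM in FtICD embryos and 382 to 483 CPM in wild-type embryos, without overlap, and its part in the values of the genes on X was not tested. Across the 34 members the Spearman correlation of merged exon length and log2 fold change was -0.46, and across all genes it was 0.20; genes are not independent replicates, and all points share the same 8 libraries.

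Other measures moved with the embryo groups. Ribosomal RNA took 12.1% to 16.2% of counts in FtICD embryos and 4.22% to 6.02% in wild type. With ribosomal and mitochondrial genes taken out of the fit, 21 members were lower and 1 was higher, with a median log2 fold change of -0.34. Any other part of ribosomal RNA in the ND- values was not tested. The 8 muscle markers, all of them well counted, summed to 27678 to 30444 CPM in FtICD and 37169 to 43093 CPM in wild type. Of them 4 were lower, 1 was higher and 3 were not called. The 5 markers of embryonic epidermis and cuticle summed to 8243 to 9914 CPM in FtICD and 10754 to 15287 CPM in wild type, with 2 lower and 1 higher. Of 5 neuroblast markers 3 were higher, and of 6 wing disc markers 4, with none lower in either list. Of the 6 neuron markers 4 were higher, with sums of 575 to 627 CPM in FtICD and 448 to 503 CPM in wild type, and of the 5 haemocyte markers 4 were higher, with sums of 105 to 119 CPM in FtICD and 74.7 to 84.9 CPM in wild type. Among all genes tested 26.7% were higher and 25.8% lower in FtICD embryos. The part of these cell types in the decrease of the ND- genes was not tested.

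Genes that belong to complex I without an ND- symbol were counted too. The 7 mitochondrial mt:ND genes, which encode the proton-pumping membrane core, went the other way from the nuclear genes in embryos. Of them 6 rose (26.7% of all genes did), none fell (25.8% of all genes did), and the median log2 fold change was 2.11. Their summed level was 400.0, 443, 464 and 579 CPM in FtICD embryos and 322, 227, 248 and 244 CPM in wild-type embryos. All FtICD libraries lay above all wild-type ones. The share of ribosomal RNA was higher in the same libraries, and its part in the mt:ND values was not tested. NP15.6 (NDUFB11), a distal subunit whose symbol does not begin with ND-, averaged 132 ± 7.01 CPM in FtICD and 223 ± 12.95 CPM in wild type (SD, n = 4 each), and fell by 0.76 ± 0.07 in log2 terms (SE, adjusted p = 1.5e-05).

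All 4 assembly factors tested fell in FtICD embryos, where 25.8% of all genes did, with a median log2 fold change of -0.56. They were sicily, CIA30, Egm and ECSIT, which act in building the enzyme and are not part of it. Of 13 regulators of mitochondrial gene expression and upkeep, 3 rose and 5 fell, and the 61.5% called compares with 52.5% of all genes. TFAM, which packs mitochondrial DNA and starts its transcription, fell by 0.36 ± 0.07 (SE, adjusted p = 0.00125), and park, the fly parkin, by 0.70 ± 0.11 (SE, adjusted p = 0.000356). The fly PGC-1 gene srl rose by 0.35 ± 0.10 (SE, adjusted p = 0.0138).

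**Figure D3:**
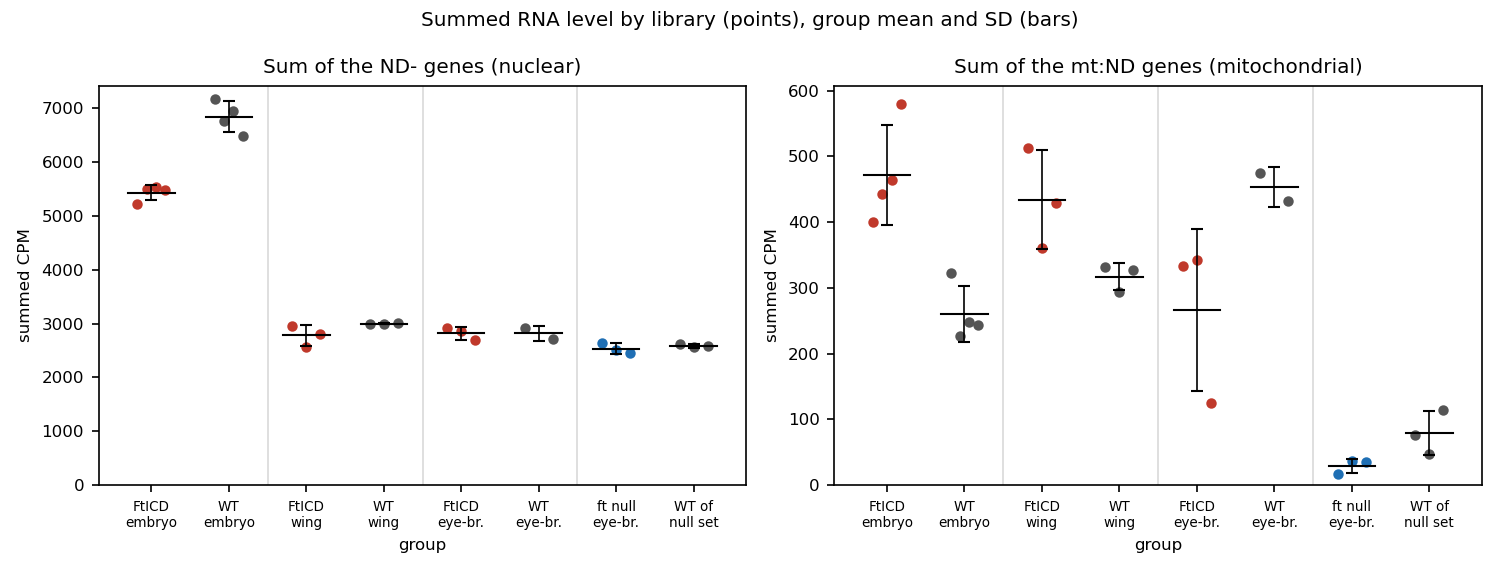
Summed CPM (vertical axes, from 0) of the nuclear ND- genes (left) and of the mitochondrial mt:ND genes (right) in each library (points) of the 8 groups (horizontal axes), with group mean and SD (bars). In embryos the nuclear sum is lower in FtICD, 5230 to 5539 against 6493 to 7180 CPM, and the mitochondrial sum higher, 400.0 to 579 against 227 to 322 CPM; in the larval groups the nuclear sum stays between 2450 and 3003 CPM.

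In wing discs few subunit genes differed between FtICD and wild type. Of 35 tested, 3 were lower (9.97% of all genes were) and none was higher (7.67% of all genes); the 8.57% of members called in either direction compares with 17.6% of all genes. In edgeR 6 members had an unadjusted p under 0.05, which is 17.1% of them against 32.7% of all genes. DESeq2 called none higher and 4 lower, but its share over all genes was not counted, so these counts have no background. The median log2 fold change was -0.06, with 0.01 over all genes. The summed ND- level was 2572 to 2963 CPM in FtICD discs and 2986 to 3003 CPM in wild-type discs. The groups did not overlap for 7 of 35 members, against 39.6% of all genes.

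The 3 lower genes were ND-30, ND-18 and ND-B14.7. ND-30 had 71.1, 66.3 and 60.2 CPM in FtICD discs, against 105, 100 and 110 CPM in wild-type discs. The groups were far apart, the log2 fold change being -0.67 ± 0.09 (SE, adjusted p = 0.00324), and the call stayed when any library was left out. ND-B14.7 (NDUFA11), a proximal membrane subunit, had 32.3, 29.7 and 33.3 CPM in FtICD and 37.5, 39.6 and 41.0 CPM in wild type. Its log2 fold change was -0.31 ± 0.09 (SE) with an adjusted p of 0.0497, which rose to between 0.0607 and 0.150 when any 1 of the 6 libraries was left out. The core subunits ND-51, ND-24, ND-49, ND-20 and ND-23 had log2 fold changes between -0.02 and 0.18 in discs, none of them called. The 5 fat body markers summed to 70.8 to 817 CPM in FtICD discs and 29.2 to 88.2 CPM in wild-type discs. Of them 2 were higher, where 7.67% of all genes were, and the part of this in the ND- values was not tested.

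The third, ND-18, differed widely between the wild-type replicates. It had 6.11, 2.76 and 3.34 CPM in FtICD discs and 64.1, 34.3 and 8.65 CPM in wild-type discs. The FtICD libraries were the lower ones, but wild-type replicate 3 lay close to them. The log2 fold change was -3.13 ± 0.71 (SE, adjusted p = 0.0249). It was no longer called without FtICD replicate 2 (adjusted p = 0.104), FtICD replicate 3 (0.0658), wild-type replicate 1 (0.0535) or wild-type replicate 2 (0.0695). Hsc70-4, a constitutive chaperone gene, spread over the same libraries, with 76.9, 76.2 and 45.1 CPM in FtICD and 442, 80.7 and 61.8 CPM in wild type; its part in the ND-18 values was not tested. ND-75 had 132, 83.4 and 47.0 CPM in FtICD and 145, 120 and 136 CPM in wild type. FtICD replicate 3 was lowest and replicate 1 lay within the wild-type range. ND-B17 (NDUFB6), with 47.2, 26.0 and 19.4 CPM in FtICD and 48.4, 44.9 and 40.1 CPM in wild type, had the same order of FtICD libraries.

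Of the other lists in discs, mt:ND5 was the called mt:ND gene among 7, higher with 174 ± 30.7 CPM in FtICD and 113 ± 9.43 CPM in wild type (SD, n = 3 each). No assembly factor of 4 was called in edgeR, and none had an unadjusted p under 0.05. Of the 13 regulators, park was called, its log2 fold change being -0.73 ± 0.15 (SE, adjusted p = 0.0170).

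In FtICD eye-brain complexes no ND- gene was called by edgeR among 34 tested, where 3.15% of all genes were higher and 1.08% lower. At an unadjusted p under 0.05 there were 8 members, 23.5% of those tested, near the 22.5% of all genes. DESeq2 called 4 higher and 3 lower, but its share over all genes was not counted, so these counts have no background. The spread between libraries was the widest of the 4 comparisons, with a biological coefficient of variation of 33.7%. The median log2 fold change was -0.07, against 0.01 over all genes. Without FtICD replicate 3, which stood apart, it was 0.01, against 0.00 over all genes. In that refit 2 members were called lower, ND-30 and ND-MLRQ, and the share of all genes called was not counted. ND-MLRQ had 70.3, 81.0 and 47.9 CPM in FtICD and 102 and 106 CPM in wild type, replicate 3 being the lowest; its log2 fold change was -0.65 ± 0.23 (SE, adjusted p = 0.181) with all libraries and -0.46 ± 0.10 (SE, adjusted p = 0.0490) without replicate 3. The groups did not overlap for 13 of 34 members, against 46.3% of all genes. The summed ND- level was 2690 to 2917 CPM in FtICD, and 2714 and 2920 CPM in wild type.

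The members of highest mean CPM in this tissue were ND-39, ND-ACP and ND-49. ND-39 had 235, 217 and 256 CPM in FtICD and 186 and 187 CPM in wild type, all FtICD libraries being higher (adjusted p = 0.163, and 0.103 without FtICD replicate 3). ND-ACP had 196, 202 and 156 CPM in FtICD and 212 and 187 CPM in wild type, with overlap. ND-49 had 189, 202 and 178 CPM in FtICD and 183 and 187 CPM in wild type, again with overlap.

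The smallest adjusted p among the ND- genes in the FtICD eye-brain comparison was that of ND-30, with 61.6, 56.5 and 54.2 CPM in FtICD and 82.8 and 78.1 CPM in wild type. All FtICD libraries were below both wild-type ones. The log2 fold change was -0.49 ± 0.09 (SE), and the adjusted p was 0.0598 in edgeR and 0.00012 in DESeq2. Without FtICD replicate 3 the edgeR value was 0.0419. ND-30, ND-PDSW and ND-B14.7 were the members whose FtICD libraries lay below all wild-type ones in each of the 3 tissues, 3 of the 34 tested in all, where 2.34% of all genes did so. None lay above in each, against 2.28% of all genes. ND-PDSW had 107, 86.2 and 111 CPM in FtICD discs and 124, 115 and 135 CPM in wild-type discs (adjusted p = 0.128). In eye-brain complexes it had 93.0, 96.9 and 81.4 CPM in FtICD and 115 and 114 CPM in wild type (adjusted p = 0.153). ND-B14.7 had 33.0, 30.6 and 30.6 CPM in FtICD eye-brain complexes and 43.5 and 37.8 CPM in wild type (adjusted p = 0.139).

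In eye-brain complexes ND-18, ND-75 and ND-B17 all had higher FtICD than wild-type libraries, without a call. ND-18 had 59.0, 11.7 and 94.8 CPM in FtICD eye-brain complexes and 5.18 and 3.57 CPM in wild type. The FtICD libraries differed widely among themselves, and the log2 fold change of 3.65 ± 0.95 (SE) had an adjusted p of 0.109. Without FtICD replicate 3 it was 3.01 (adjusted p = 0.0748). FtICD replicate 3, the highest in ND-18, was also the highest in Hsc70-4, whose wild-type libraries had 87.6 and 46.1 CPM. ND-75 had 156, 148 and 210 CPM in FtICD and 122 and 76.7 CPM in wild type. ND-B17 had 40.3, 44.0 and 44.3 CPM in FtICD and 29.3 and 17.4 CPM in wild type. Wild-type replicate 2 was the lowest of all 5 libraries for both genes. Without FtICD replicate 3 the log2 fold change of ND-75 was 0.62 (adjusted p = 0.140) and that of ND-B17 was 0.86 (adjusted p = 0.0982). In the ft null table, sequenced on the other instrument, replicates of the same 3 genes lay close together within each group. ND-18 had 73.3, 66.6 and 60.2 CPM in ft null and 76.9, 72.9 and 67.2 CPM in wild type. ND-75 was called higher in the ft null, as given below. The part of the sequencer in the spread of these genes was not tested.

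**Figure D4:**
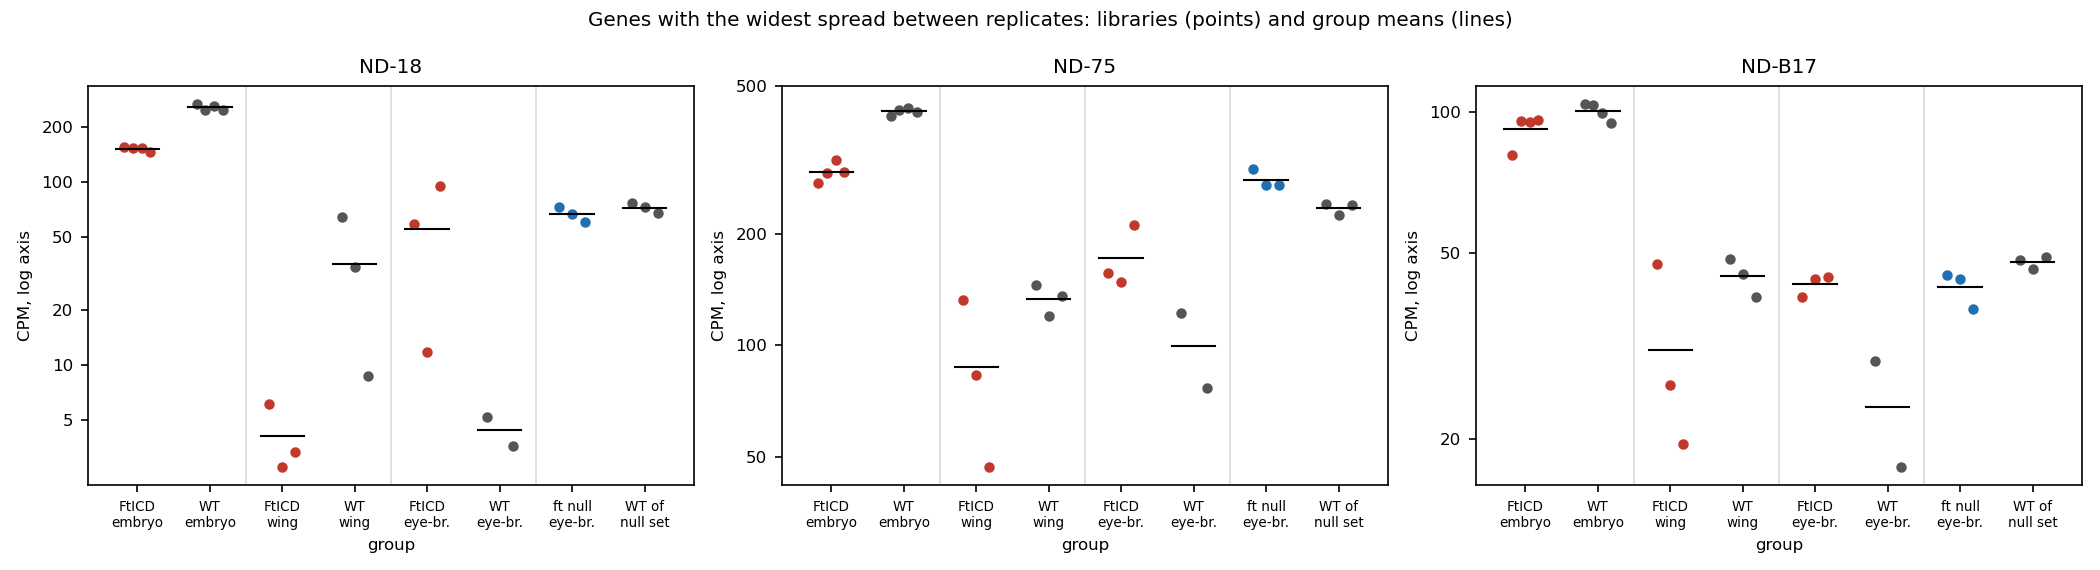
CPM (vertical log axes) of ND-18, ND-75 and ND-B17 in each library (points) of the 8 groups (horizontal axes), with group means (lines). Embryo and ft null libraries lie close together within groups, while ND-18 runs from 2.76 to 64.1 CPM over the wing discs and from 3.57 to 94.8 CPM over the eye-brain complexes of the FtICD table.

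The mt:ND genes had a median log2 fold change of -1.35 in FtICD eye-brain complexes, with none of 7 called in edgeR and 2 at an unadjusted p under 0.05. Their sum was 333, 342 and 124 CPM in FtICD and 475 and 432 CPM in wild type, FtICD replicate 3 being the lowest. Without that library the median was -0.82, 2 of 7 were lower and 6 had an unadjusted p under 0.05. No assembly factor of 4 was called or had an unadjusted p under 0.05. Of the 13 regulators srl was called, with 70.2 ± 0.778 CPM in FtICD (SD, n = 3) and 95.9 ± 0.713 CPM in wild type (SD, n = 2), an adjusted p of 0.0432.

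In ft null eye-brain complexes the subunit genes moved in both directions. Of 33 tested, 5 were higher (23.5% of all genes were) and 8 were lower (21% of all genes), and the 39.4% called in either direction compares with 44.5% of all genes. The median log2 fold change was -0.08, against 0.00 over all genes, and the groups did not overlap for 18 members, where 56.7% of all genes did not. The summed ND- level was 2450 to 2644 CPM in ft null and 2557 to 2620 CPM in wild type, with overlap. When 1 library was left out, 1 member was higher and 9 were lower without ft null replicate 1, 1 and 4 without ft null replicate 2, and 4 and 3 without ft null replicate 3. Leaving out a wild-type library gave 1 higher and 3 lower without replicate 1, 4 and 10 without replicate 2, and 1 and 5 without replicate 3. Scaled by library totals alone, 1 member was higher and 10 were lower. The shares of all genes called in these refits were not counted, so the member counts have no background beside them.

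Of the 13 called genes, ND-AGGG, ND-MLRQ, ND-13A and ND-75 kept their call without any 1 library. ND-AGGG (NDUFB2), of the distal membrane arm, had 42.6, 47.0 and 49.3 CPM in ft null and 78.9, 67.5 and 82.1 CPM in wild type. All ft null libraries were below all wild-type ones, and the log2 fold change was -0.72 ± 0.09 (SE, adjusted p = 0.000757). ND-MLRQ had 28.4, 37.3 and 31.8 CPM in ft null and 75.1, 52.9 and 80.1 CPM in wild type. Its groups did not overlap, wild-type replicate 2 being the nearest to ft null, and the log2 fold change was -1.09 ± 0.17 (SE, adjusted p = 0.00168). ND-13A (NDUFS6), a zinc-binding accessory subunit of the N module, had 25.8, 25.2 and 27.6 CPM in ft null and 36.3, 32.3 and 37.6 CPM in wild type (log2 fold change -0.43 ± 0.08 SE, adjusted p = 0.00471). ND-MLRQ and ND-AGGG both lie at the inner end of 3L, from 23339326 to 23345936 and from 24976254 to 24977118 in BDGP6.54.

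The mt:ND genes fell in the same libraries. Their sum was 17.2, 36.2 and 35.0 CPM in ft null and 76.6, 47.1 and 114 CPM in wild type. Of the 4 tested 3 were lower, where 21% of all genes were. The library lowest in mt:ND RNA was also the lowest in ND-MLRQ and ND-AGGG in both groups, ft null replicate 1 and wild-type replicate 2. FtICD wing disc replicate 2 and FtICD eye-brain replicate 3 were likewise the lowest of their groups in mt:ND RNA, ND-MLRQ, ND-AGGG and ND-13A. In the other 4 groups the lowest mt:ND library was not the lowest in all 3 of these genes. The part of the mt:ND level in the ND-MLRQ, ND-AGGG and ND-13A values was not tested.

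The genes that rose in the ft null included the core subunits ND-75 of the N module and ND-20 of the Q module, both on X. On X 2 of 9 members tested rose and 1 fell, where 30.6% and 15.1% of all genes there did. On the autosomes 3 of 24 rose and 7 fell, where 22.1% and 22.1% of all genes did. The roX1 RNA was at 795 to 1263 CPM in ft null and 1805 to 2050 CPM in wild type. Its part in the values of the genes on X was not tested. ND-75 had 298, 270 and 270 CPM in ft null and 240, 224 and 239 CPM in wild type, with no overlap, and rose by 0.25 ± 0.06 in log2 terms (SE, adjusted p = 0.0135). ND-39 had 171, 161 and 156 CPM in ft null and 138, 145 and 144 CPM in wild type (adjusted p = 0.0279). ND-B12 had 50.2, 42.2 and 39.8 CPM in ft null and 32.2, 38.1 and 33.0 CPM in wild type (adjusted p = 0.0289). ND-PDSW had 108, 93.7 and 87.6 CPM in ft null and 74.4, 87.2 and 72.4 CPM in wild type (adjusted p = 0.0407). ND-20 had 96.5, 88.7 and 87.5 CPM in ft null and 82.2, 81.4 and 79.2 CPM in wild type (adjusted p = 0.0469). The ft null libraries of ND-PDSW came within 1 CPM of the nearest wild-type one, and the calls of ND-39, ND-B12 and ND-PDSW were each lost without ft null replicate 1 or 2 or wild-type replicate 1 or 3. ND-20 lost its call without any 1 of the 6 libraries, with adjusted p-values from 0.0758 to 0.123.

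The other lower genes in the ft null changed by little. ND-B17.2 (NDUFA12), an N module accessory subunit, had 57.7, 59.5 and 58.3 CPM in ft null and 73.0, 67.0 and 63.6 CPM in wild type (log2 fold change -0.21 ± 0.06 SE, adjusted p = 0.0275). ND-ASHI had 51.6, 48.7 and 47.6 CPM in ft null and 57.8, 59.1 and 53.8 CPM in wild type (adjusted p = 0.0279). ND-B22 (NDUFB9), ND-49 and ND-19 (NDUFA8) had log2 fold changes of -0.20, -0.18 and -0.18, with adjusted p-values from 0.0326 to 0.0374. These 5 calls were each lost without at least 3 of the libraries, with adjusted p-values up to 0.144. The core subunits ND-51, ND-24, ND-23 and ND-30 had log2 fold changes between 0.03 and 0.12, none of them called.

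Other measures moved with the ft null groups. Ribosomal RNA took 0.471% to 0.735% of counts in ft null and 0.946% to 1.44% in wild type. Hsc70-4 was at 11816 to 12801 CPM in ft null and 7464 to 7839 CPM in wild type. The part of either in the ND- values was not tested. All 5 haemocyte markers were higher, with sums of 327 to 419 CPM in ft null and 115 to 128 CPM in wild type. All 6 neuron markers were lower, with sums of 1251 to 1293 CPM in ft null and 1764 to 2070 CPM in wild type, and 5 of 6 eye disc markers were lower. Among all genes tested 23.5% were higher and 21% lower in the ft null. The part of the marked cell types in the ND- values was not tested. No assembly factor of 4 was called in edgeR, and 1 had an unadjusted p under 0.05. Of the 13 regulators 4 rose and 1 fell, and the 38.5% called compares with 44.5% of all genes. Pink1, a mitochondrial kinase of mitophagy, averaged 156 ± 6.28 CPM in ft null and 98.7 ± 3.26 CPM in wild type (SD, n = 3 each, log2 fold change 0.66 ± 0.06 SE, adjusted p = 0.000168). The fly Nrf2 gene cnc averaged 205 ± 2.95 CPM in ft null and 144 ± 3.41 CPM in wild type (SD, n = 3 each, log2 fold change 0.51 ± 0.05 SE, adjusted p = 0.000281).

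Of the 33 members tested in all 4 comparisons, 7 were called in none (21.2%, against 22.8% of the 8495 genes tested in all 4), 14 in a single one (42.4% against 43.1%) and 12 in a pair (36.4% against 26.7%). No member was called in 3 or 4, where 6.26% and 1.2% of all genes were. Opposite directions were found for 6 members, 18.2% of those tested against 19% of all genes. ND-75, ND-PDSW, ND-20, ND-B12 and ND-39 were lower in FtICD embryos and higher in ft null eye-brain complexes, while ND-MLRQ was higher in FtICD embryos and lower in ft null eye-brain complexes. These comparisons differ in tissue and stage as well as in genotype, and their difference was not tested.

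Whether the FtICD effect differed between tissues was tested as an interaction. The wing disc effect minus the embryo effect was called for 16 of 35 members, 14 above and 2 below 0, a share of 45.7% where 31.6% of all genes were called. The median difference was 0.32 on the log2 scale over the members and 0.13 over all genes, so the members' differences are read against that shift. The smallest adjusted p-values were those of ND-39, with a difference of 0.67 ± 0.11 (SE, adjusted p = 0.000769), ND-PDSW with 0.72 ± 0.14 (0.00184), ND-MLRQ with -1.21 ± 0.24 (0.00202) and ND-B18 with 0.70 ± 0.14 (0.00234). ND-B18 (NDUFB7), of the distal arm, had 82.0, 66.7 and 80.6 CPM in FtICD discs and 72.9, 64.1 and 77.1 CPM in wild-type discs, with overlap. In embryos it had 124, 133, 130 and 123 CPM in FtICD and 182, 175, 185 and 165 CPM in wild type, with none. ND-30 was lower in both tissues and its difference was not called.

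The eye-brain effect minus the embryo effect was called for 14 of 34 members, 12 above and 2 below 0 (30.8% of all genes were called), and for 8 members without wild-type eye-brain replicate 2. ND-39 differed by 0.91 ± 0.11 (SE, adjusted p = 0.000171), ND-MLRQ by -1.68 ± 0.23 (0.000375), ND-18 by 4.39 ± 0.74 (0.00119) and ND-75 by 1.31 ± 0.23 (0.0016). The wild-type eye-brain libraries behind the ND-18 and ND-75 values averaged 4.38 and 99.5 CPM (n = 2). Wild type of the same tissue and stage in the ft null table averaged 72.3 and 235 CPM (n = 3). Each set was scaled on its own, and the gap between the sets was not tested. Between eye-brain complexes and wing discs 1 of 36 members was called (7.56% of all genes), ND-18 with a difference of 6.75 ± 1.32 (SE, adjusted p = 0.0133). That call was lost without wild-type eye-brain replicate 1 (adjusted p = 0.0779) or replicate 2 (0.105), and 3 members were called without FtICD wing disc replicate 1.

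In eye-brain complexes the ft null effect minus the FtICD effect was called for 5 of 34 members (17.2% of all genes), 3 above and 2 below 0. Scaled by library totals alone it was 2 above and 3 below. Without FtICD eye-brain replicate 3 it was 2 above and 4 below, and the median over the members was -0.09, against 0.03 with all libraries. Over all genes these medians were -0.06 and -0.02. ND-30 differed by 0.56 ± 0.11 (SE, adjusted p = 0.0078), with 78.3, 84.4 and 77.3 CPM in ft null and 82.3, 77.7 and 75.4 CPM in its wild type, so the groups overlapped in the ft null set and not in the FtICD set. ND-PDSW differed by 0.69 ± 0.15 (adjusted p = 0.0139) and ND-B14.7 by 0.46 ± 0.13 (adjusted p = 0.0349). ND-18 differed by -3.72 ± 0.86 (adjusted p = 0.0177), a call lost without wild-type replicate 1 (adjusted p = 0.0582) or replicate 2 (0.0817) of the FtICD set. ND-B17 differed by -1.01 ± 0.24 (adjusted p = 0.0202), a call lost without ft null replicate 3 (adjusted p = 0.055). ND-B17 had 44.8, 43.9 and 37.9 CPM in ft null and 48.3, 46.1 and 49.0 CPM in its wild type, below it in every library and not called. The FtICD and ft null sets were sequenced on different instruments, and each was read against its own wild type. For ND-18 and ND-B17 that wild type averaged 4.38 and 23.3 CPM in the FtICD set, and 72.3 and 47.8 CPM in the ft null set. The part of this gap in their differences was not tested.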

How the data were processed

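RNA-seq counts per gene were read from the 2 deposited tables (17208 genes, 25 libraries, none left out). The values the authors deposited were taken for expected counts per gene; the tools named for them are given below, how they were run is not given in the sources used here, and they were not scaled for depth: 31.8% of nonzero values were not whole (tolerance 1e-06), and all were rounded. Per the labels, cDNA came from 10 ng of RNA (RIN above 8) by the SMARTer Ultra Low kit, and reads were pairs of 150 bases. Per the submitters' processing notes, Trimmomatic 0.33, FastQC 0.10, Salmon 1.80, edgeR and the build dm6 were used. The kit as named keeps no strand, so overlapping genes cannot be fully told apart.

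Each comparison was fitted on all genes of its own libraries in R 4.3.3 with edgeR 4.0.16: filterByExpr (minimum count 10), TMM scaling, a two-sided quasi-likelihood test, and Benjamini-Hochberg adjustment over all genes tested, at 0.05. Standard errors come from the same fits, and CPM values use TMM-scaled library sizes of the comparison. Differences between effects were interaction terms. The biological coefficient of variation was 14.9% (embryo), 20.6% (wing disc), 33.7% (eye-brain FtICD) and 11.9% (ft null). DESeq2 1.42.0, other scalings, no filter, a replicate block, a 1.5-fold minimum, the table without ribosomal and mitochondrial genes, and each library left out were alternatives. The procedure was tested on simulated data. Coordinates and exon lengths are from Ensembl release 115 of BDGP6.54.

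The members, lists and the rule for named genes were chosen with earlier results of these data known. Values by library are given for the up to 5 called members of smallest adjusted p per direction and comparison, those called in opposite directions, up to 4 per interaction test, and, where none was called, the 3 of highest CPM; the 7 core subunits, ft and the mt:ND list are always named, and ND-18, ND-75 and ND-B17 as genes of wide spread were chosen after their values were seen, as was leaving out FtICD eye-brain replicate 3 for single genes and mt:ND. The labels do not say whether replicates were separate cultures or animals beyond naming them, so p-values measure the spread between these libraries. None of 28 within-group pairs of libraries was identical, and the lowest chi-square per degree of freedom among them was 7.96. Counting error is small for the subunits at these depths and large for their relatives, which had few counts or none.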

Additional observations from a re-analysis of the deposited data

Results flagged for a closer look

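In groups of 4 libraries, a single library stood apart from the other 3 by Dixon's criterion in 6 of 68 gene and group pairs examined. For a single pair chance gives about 1 in 20. The genes share the same libraries and are not independent, so that rate is no chance level for the count. In FtICD embryos the flagged libraries were replicate 1 for ND-13A (126 CPM, the highest), ND-B14.5A (56.8 CPM) and ND-B17 (80.8 CPM, the lowest), and replicate 4 for ND-18 (146 CPM, the lowest). In wild-type embryos they were replicate 1 for ND-30 (209 CPM) and ND-B14.5B (110 CPM), the highest of their groups.

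Effects that differed between tissues by an interaction test were singled out for the 4 members of smallest adjusted p per test. Wing disc minus embryo, they were 0.67 for ND-39, 0.72 for ND-PDSW, -1.21 for ND-MLRQ and 0.70 for ND-B18, on the log2 scale. Eye-brain minus embryo, they were 0.91 for ND-39, -1.68 for ND-MLRQ, 4.39 for ND-18 and 1.31 for ND-75. Eye-brain minus wing disc it was 6.75 for ND-18. The ft null effect minus the FtICD effect in eye-brain complexes was 0.56 for ND-30, 0.69 for ND-PDSW, -3.72 for ND-18 and -1.01 for ND-B17.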

How the results depend on the processing

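Over 79 results for single genes and 1074 alternatives, 959 kept direction and side of the threshold, 84 lost the call, 14 gained one and 17 changed sign, each in a gene without a call; the cause was not tested. Counts of called members by alternative were as follows, and shares of all genes are not given beside them. With at least 1.5-fold required, lower calls were 4 in embryos, ft null calls 0 higher and 2 lower, and the interaction calls 8 (wing disc minus embryo), 6 (eye-brain minus embryo) and 3 (ft null minus FtICD). DESeq2 called 4 higher and 3 lower in FtICD eye-brain complexes and 4 for eye-brain minus wing disc, as did 1 fit of all 3 FtICD tissues. In the ft null, library totals alone gave 1 higher call, and no filter 5 lower ones. With each library left out, calls ranged from 1 to 2 higher in embryos, 1 to 4 lower in wing discs, 0 to 1 higher and 0 to 2 lower in FtICD eye-brain, 1 to 4 higher and 3 to 10 lower in ft null, 8 to 15 for eye-brain minus embryo and 0 to 3 for eye-brain minus wing disc (for interactions chosen after seeing the data).

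Replicate numbers did not pair the libraries: same-numbered deviations correlated at -0.256 to 0.264, and not every library correlated best with its own number. With the replicate block, calls were 1 higher and 2 lower in FtICD eye-brain and 1 higher and 3 lower in ft null; other counts stayed within 1.5 times.

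The sign changes in wing discs were those of ND-23, whose log2 fold change ran from -0.0066 (without FtICD replicate 1) to 0.167 with each library left out, ND-51, from -0.014 (without FtICD replicate 2) to 0.139, and ND-49, from -0.0819 to 0.031 (without FtICD replicate 1), with 0.022 by library totals. In FtICD eye-brain they were those of ND-23, from -0.028 (without FtICD replicate 1) to 0.125, ND-20, from -0.171 to 0.032 (without FtICD replicate 3), with 0.028 under the block, ND-51, from -0.054 (without wild-type replicate 2) to 0.155, ND-49, from -0.0084 (without FtICD replicate 2) to 0.0853, and ND-ACP, from -0.198 to 0.0017 (without FtICD replicate 3), with 0.00023 under the block. In the ft null it was ND-30, from -0.00891 (without ft null replicate 2) to 0.0646, with -0.017 by library totals.

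Few counts in 7 members leave those without a test or with a wide error, at depths of 15016561 to 54256669 counts.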

Other observations

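The relatives of subunit genes had little RNA. ND-20L, the relative of the core subunit ND-20, had 30, 19 and 12 counts in FtICD wing discs and 50, 13 and 33 counts in wild-type discs. In the other 19 libraries it had 0 to 3 counts. ND-51L1, the relative of the flavin-binding ND-51, lies within the gene Smurf and was counted in all 25 libraries, with 43 counts at most and close levels in the wild-type tissues: 0.896 CPM in wing discs, 0.898 CPM in eye-brain complexes and 0.868 CPM in embryos, scaled together. It had 0.352, 0.451 and 0.491 CPM in FtICD discs and 1.0, 1.25 and 0.797 CPM in wild-type discs. The disc groups did not overlap, and the log2 fold change was -1.23 ± 0.35 (SE, adjusted p = 0.0523 in edgeR).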
